A study of Mus musculus with 21 samples.

Results

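The effect of an empagliflozin (EMPA) diet on the RNA of the mouse left ventricle was estimated over both genotypes at once. All 21 mice of the series entered 1 additive model of genotype plus diet, which compared 9 mice on the EMPA diet with 12 on the control diet (CD) and gave 1 diet coefficient per gene. Of the 55450 genes in the count table, 17309 had enough counts to be tested, and these are the genes described here.

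The groups were wild-type mice on CD (WT-CD, n = 5), wild-type mice on EMPA (WT-EMPA, n = 5), R403Q mice on CD (R403Q-CD, n = 7) and R403Q mice on EMPA (R403Q-EMPA, n = 4). R403Q mice are heterozygous for a missense mutation of the α-myosin heavy chain gene Myh6 (written Myh6+/R404Q in the labels), a model of hypertrophic cardiomyopathy, and the wild-type mice were their littermates. All 21 were males of the strain 129S6/SvEv that started a diet at 9 to 10 weeks of age, and the EMPA diet was the control diet with 0.15 mg of EMPA added per g. By the study's protocol hearts for RNA were taken at 12 weeks of age after 2 weeks of treatment, whereas the labels give 16 weeks of treatment, so the duration behind these values is uncertain. The protocol describes randomization by body weight into WT-CD, R403Q-CD and R403Q-EMPA only, and does not say how the WT-EMPA mice were assigned. The labels also give the cage of each mouse. There were 4 cages on CD and 3 on EMPA. Both genotypes were present in 6 of these 7 cages, and 0 cages held both diets. A difference between diets and a difference between these cages therefore cannot be told apart for any gene below.

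EMPA blocks sodium-glucose cotransporter 2, the protein of Slc5a2, through which the kidney takes glucose back from the urine, and the loss of glucose shifts the body towards the use of fatty acids and ketone bodies. In the heart, fatty acids that enter the myocyte act as ligands of the nuclear receptor PPARα, which turns on genes for their storage and oxidation, while oxysterols act on the liver X receptors (LXR), which turn on genes of cholesterol export and Srebf1, the gene of the lipogenic regulator SREBP1c. The circadian clock of the myocyte is a feedback loop in which BMAL1 (gene Arntl) and CLOCK turn on Per1, Dbp, Nr1d1 and Ciart at E-boxes, and feeding time and glucocorticoids set its phase.

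The tissue matched its label. The summed level of 8 cardiomyocyte markers, in CPM (counts scaled by TMM to the same library total), was 62290 to 105300 over the CD mice and 84170 to 109000 over the EMPA mice, with 0 of 8 past the test described next (2 at an unadjusted p under 0.05, and 0 with DESeq2). Total counts ran from 23491535 to 43539684 per mouse. The mean of the differences between diets within each genotype, -791700 counts, was smaller than the spread of the mice (two-sided exact permutation p = 0.71 with diet permuted within genotype). The share of counts on Myh6 was 3.72 ± 0.703% in CD (SD, n = 12) and 4.005 ± 0.628% in EMPA (SD, n = 9), and the mean difference within genotype was 0.159 percentage points (exact permutation p = 0.50), or 0.0416 without R403Q-CD replicate 2. At these totals 3 counts correspond to 0.0689 to 0.128 CPM, which is the lowest level that can be read and covers counting error only. Slc5a2, the target of the drug, had 5 counts over all 21 hearts, with 16 mice at 0. Slc5a1, the gene of the related cotransporter SGLT1, was at 0.476 to 2.70 CPM (median 1.45) in CD and at 1.14 to 3.04 CPM (median 1.89) in EMPA mice, and its log2 difference of 0.47 ± 0.20 (SE) had an adjusted p of 0.20. The library R403Q-CD replicate 2 stood apart, with the lowest Myh6 share (1.945%) and the highest Nppa level (11000 CPM) of all mice.

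With edgeR's quasi-likelihood F test and Benjamini-Hochberg adjustment, the test behind every adjusted p given here, 571 of the 17309 genes (3.3%) had an adjusted p under 0.05. Of these, 380 were higher with EMPA (2.2% of the genes tested) and 191 lower (1.1%). The changes were small: the median absolute log2 fold change of the 571 genes was 0.32, and 37 of them, 19 higher and 18 lower, differed by more than 2-fold. At an unadjusted p under 0.05 there were 3484 genes, where 865 would be given by chance. Protein-coding genes made up 92.5% of the 571 against 80.4% of the genes tested. At the edge of the threshold, Slc30a6, Spag5 and Foxp1 lay just inside with an adjusted p of 0.0499 each, and Ptpn21 (0.0501), Tesk1 (0.0502) and Arpc2 (0.0507) lay just outside. With limma's voom and cage as a random effect 187 of the 571 passed, and named genes and lists that lost calls in that fit are pointed out below. The consensus correlation within a cage was 0.079. That fit changed both the method and the treatment of cages, and voom without cage was not run. A call lost there therefore cannot be assigned to cage alone. The tissue was sequenced in bulk, so fewer cells of a type and less RNA per cell cannot be told apart.

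Complete separation of the diets was rare. All 9 EMPA mice lay above or below all 12 CD mice for 12 genes, 0.0693% of those tested, 11 of them higher (0.0636%) and 1 lower (0.00578%). Named after their values were seen, the higher ones with an adjusted p under 0.05 included Acot2, Tmem64, Lipe, Myh7, Kif26a, Fbp2, Nceh1 (not past the threshold with cage as a random effect), Hsd17b11 and 4933431K23Rik, the lower one was Capns1, and Ahrr (adjusted p = 0.13) separated without passing the test. When mice were compared within their genotype, 28 genes (0.162%) had every EMPA mouse on the same side of every CD mouse in both genotypes, 20 higher (0.116%) and 8 lower (0.0462%), and 27 of the 28 passed the test. Among these, and again named after their values were seen, were the lipid and glucose genes Srebf1, Acsl3, Acot2, Angptl4, Lipe, Retsat and Fbp2 on the higher side and Capns1, Col22a1 and Stambp on the lower side. By cage, the 3 EMPA cage means lay outside the range of the 4 CD cage means for 1927 genes (11.1%), above it for 1038 (6%) and below it for 889 (5.14%), and 447 of them were among the 571.

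**Figure D1:**
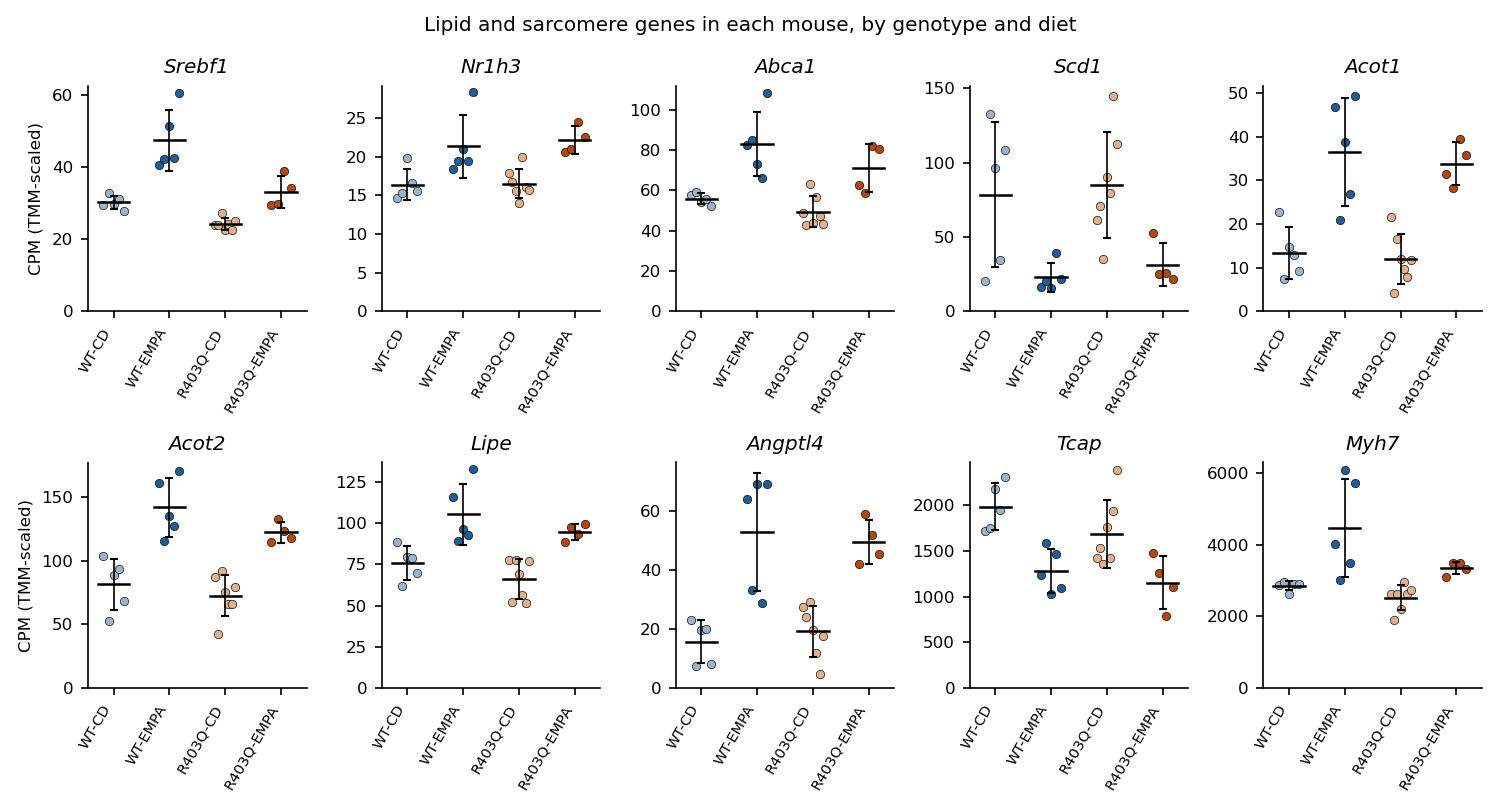
Expression in CPM (TMM-scaled, linear axes from 0) of 10 genes in each of the 21 mice, by genotype and diet; points are mice, horizontal lines group means and bars the SD. Acot2, Lipe and Myh7 separated all 9 EMPA from all 12 CD mice, Srebf1 did so within each genotype, and Scd1 and Tcap were lower with EMPA with overlapping mice.

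Srebf1, on chr11:60199089-60222581 of the minus strand (GRCm38), had the smallest p-value of all list members. It ranged from 22.5 to 32.8 CPM (median 26.1) in CD mice and from 29.5 to 60.5 CPM (median 40.4) in EMPA mice, and rose by 0.55 ± 0.07 on the log2 scale (SE, adjusted p = 0.00071). Over all mice the ranges overlapped, but within a genotype they did not. In wild-type mice the CD range ended at 32.8 and the EMPA range began at 40.4 CPM, and in R403Q mice these limits were 27.3 and 29.5 CPM. Nr1h3, the gene of LXRα, which acts on Srebf1, was at 13.9 to 19.9 CPM (median 15.9) in CD and at 18.4 to 28.4 CPM (median 20.9) in EMPA mice and rose by 0.40 ± 0.08 (adjusted p = 0.0095). Abca1, the exporter of cellular cholesterol and a textbook LXR target, went from a median of 53.3 CPM (42.7 to 63.1) to 80.5 CPM (58.7 to 109), a rise of 0.55 ± 0.09 (adjusted p = 0.0031). Only the ends of the ranges of both genes overlapped. Lpcat3, which puts polyunsaturated chains into phospholipids and is another LXR target, was at 28.6 to 42.7 CPM (median 33.6) in CD and at 39.7 to 55.7 CPM (median 47.1) in EMPA mice (log2 difference 0.36 ± 0.07, adjusted p = 0.0069).

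Of the desaturases on the list 2 passed, Scd1 lower and Scd4 higher. Scd1, the stearoyl-CoA desaturase and a well-known SREBP1c and LXR target, was at 20.1 to 145 CPM (median 84.9) in CD mice and at 15.8 to 52.7 CPM (median 22.0) in EMPA mice. It fell by 1.61 ± 0.30 on the log2 scale (adjusted p = 0.0093). CD mice spread widely, and the lowest of them lay below the median of the EMPA mice. Scd4, a heart-expressed desaturase of the same family, was at 0.787 to 4.29 CPM (median 2.10) in CD and at 3.02 to 10.9 CPM (median 4.08) in EMPA mice and rose by 1.35 ± 0.29 (adjusted p = 0.017). Both belong to a cluster of similar genes, and as only uniquely aligned pairs were counted, their levels carry that uncertainty. Scd2 differed by 0.08 (adjusted p = 0.68), Fads1 by 0.11 (0.29) and Fads2 by -0.13 (0.59). Among the enzymes of fatty acid synthesis Fasn differed by -0.35 (adjusted p = 0.099), Acly by -0.11 (0.28) and Acaca by -0.04 (0.82), and these did not pass either. Over the whole list of LXR and SREBP1c genes 5 of 23 were higher and 1 lower (background 2.2% and 1.1%), and the median log2 fold change was 0.04, against -0.01 over all tested genes. Of the cholesterol synthesis genes under SREBP2, 0 of 24 rose and 1 fell (4.17%, against 3.3% of all tested genes), Sqle, squalene epoxidase, by 0.82 ± 0.23 (adjusted p = 0.046) at levels of 0.438 to 3.19 CPM. Its call was lost with cage as a random effect.

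Genes of the PPARα program and of lipid storage gave the most calls in 1 direction of the 25 lists. Of 31 tested members 10 were higher and 0 lower with EMPA (background 2.2% and 1.1%), 28 had a positive coefficient, and the median was 0.29 on the log2 scale. Angptl4, a secreted inhibitor of lipoprotein lipase, ranged from 4.85 to 29.0 CPM (median 19.7) in CD and from 28.8 to 69.1 CPM (median 51.8) in EMPA mice, a rise of 1.56 ± 0.26 (adjusted p = 0.0042). A single CD mouse, of the other genotype, lay just above the lowest EMPA mouse. The acyl-CoA thioesterases, which split acyl-CoA into fatty acid and coenzyme A, rose as well. Acot1, the cytosolic form, went from 4.10 to 22.8 CPM (median 11.9) in CD to 20.98 to 49.3 CPM (median 35.8) in EMPA mice (log2 difference 1.48 ± 0.23, adjusted p = 0.0031), and Acot2, its mitochondrial neighbour, from 42.7 to 103 CPM (median 77.6) to 115 to 171 CPM (median 127.5; log2 difference 0.78 ± 0.12, adjusted p = 0.0031). All EMPA mice lay above all CD mice for Acot2. These 2 genes are near copies, so reads that fit both were not counted.

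Lipe, hormone-sensitive lipase, separated the diets completely, with 51.6 to 88.5 CPM (median 73.5) in CD and 88.7 to 133 CPM (median 96.5) in EMPA mice (0.50 ± 0.09, adjusted p = 0.0069). The highest CD mouse and the lowest EMPA mouse of this gene were nearly equal. Pdk4, the kinase that shuts the pyruvate dehydrogenase complex and so spares glucose, ran from 642.4 to 3133 CPM (median 1482) in CD and from 2175 to 6185 CPM (median 3831) in EMPA mice, a rise of 1.15 ± 0.26 (adjusted p = 0.021) with broad overlap.

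Further members of this list that passed were Ucp3, Plin2 and Cd36, which are named after their values were seen. Ucp3, a mitochondrial carrier that follows fatty acid supply, was at 34.0 to 117 CPM (median 66.4) in CD and at 94.2 to 164 CPM (median 119.8) in EMPA mice (log2 difference 0.92 ± 0.20, adjusted p = 0.016). Plin2, which coats lipid droplets, was at 48.2 to 81.5 CPM (median 62.7) and 63.7 to 96.4 CPM (median 87.5; 0.44 ± 0.09, adjusted p = 0.011). Cd36, the fatty acid transporter of the cell surface, rose by 0.26 ± 0.07 (adjusted p = 0.040), and did not pass with cage as a random effect. Ppara itself differed by 0.19 ± 0.11 (adjusted p = 0.34). In the RefSeq table of GRCm38.p6 promoters, 8 promoters of 7 of the called members were found, and 3 of the 8 (37.5%) held the nuclear receptor motif AGGTCA on either strand within the 250 bases before the start, against 14.0% of 32851 promoters of all genes. Over the whole list it was found in 7 of 30 promoters (23.3%). A tandem pair of this motif with 1 base between the copies, the arrangement that PPARα is known to bind, was found in 0 of these 30 promoters and in 0.0335% of all promoters. The promoters of Ucp3 (chr7:100472741-100472990, plus strand) and Plin2 (chr4:86670060-86670309, minus strand) are shown because both genes rose with the list and hold this site. They are written 5′ to 3′ along the gene, capitals mark the motif, and TGACCT is the same site read from the other strand.
Ucp3: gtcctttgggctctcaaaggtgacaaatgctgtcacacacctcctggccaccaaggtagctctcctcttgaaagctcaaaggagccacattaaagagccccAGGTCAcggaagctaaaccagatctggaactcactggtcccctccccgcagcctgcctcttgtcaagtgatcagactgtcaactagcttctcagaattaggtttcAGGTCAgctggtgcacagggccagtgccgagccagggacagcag
Plin2: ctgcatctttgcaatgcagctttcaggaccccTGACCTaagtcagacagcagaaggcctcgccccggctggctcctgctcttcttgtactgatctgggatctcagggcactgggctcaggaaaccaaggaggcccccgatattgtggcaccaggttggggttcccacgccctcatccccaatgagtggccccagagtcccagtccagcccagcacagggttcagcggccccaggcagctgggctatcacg
The motifs of Ucp3 begin 149 and 44 bases before the start and that of Plin2 begins 218 bases before it. Such a match of 6 letters is a description of the sequence and not evidence of binding.

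Among the enzymes and carriers of mitochondrial fatty acid oxidation 1 of 24 passed the test (4.17%, against 3.3% of all tested genes) and 13 had an unadjusted p under 0.05, as did 3484 of the 17309. Positive coefficients were found for 21 of the 24, with a median of 0.19. The call was Slc22a5, the carnitine carrier of the cell surface, at 20.1 to 43.3 CPM (median 33.1) in CD and 37.0 to 50.7 CPM (median 42.3) in EMPA mice (log2 difference 0.35 ± 0.08, adjusted p = 0.026), and with cage as a random effect 0 of 24 passed. The values of Cpt1b (0.32, adjusted p = 0.061), Cpt1a (0.20, 0.099), Hadha (0.26, 0.14) and Acadvl (0.19, 0.23), which stand for the carnitine shuttle and the β-oxidation spiral, did not pass. Without R403Q-CD replicate 2, 5 of 24 passed and the median was 0.15. Bdh1 and Oxct1, which the heart needs to burn ketone bodies, differed by 0.18 (adjusted p = 0.65) and 0.09 (adjusted p = 0.58).

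The lists of glucose and amino acid oxidation held 0 or 1 called gene each, where 3.3% of all tested genes were called. In the list of the pyruvate dehydrogenase complex and its kinases Pdk4 was the only 1 of 14 (7.14%), a gene that the PPARα list also holds. None of 19 genes of the tricarboxylic acid cycle and 0 of 23 genes of branched-chain amino acid breakdown passed in edgeR or in DESeq2, with medians of -0.04 and 0.05 and with 0 and 1 genes at an unadjusted p under 0.05. The smallest unadjusted p-values there belonged to Ogdh (0.20, adjusted p = 0.30), Sucla2 (-0.11, 0.56), Acad8 (-0.15, 0.18) and Acadsb (0.12, 0.28). Of 22 genes of glycolysis and glucose transport only Pkm, pyruvate kinase, passed, from 837.0 to 1151 CPM (median 996) in CD to 759.9 to 1028 CPM (median 896) in EMPA mice, a fall of 0.22 ± 0.06 (adjusted p = 0.044) that did not pass with cage as a random effect. Without R403Q-CD replicate 2 the glycolysis list had 3 lower genes, the branched-chain amino acid list 1, and the pyruvate dehydrogenase list 1 in each direction. The medians of the tricarboxylic acid cycle and branched-chain amino acid lists were then -0.07 and 0.00013. The glucose transporters Slc2a1 (0.05, adjusted p = 0.76) and Slc2a4 (0.03, adjusted p = 0.89) had coefficients near 0. Fbp2, the muscle form of fructose-1,6-bisphosphatase, which runs against glycolysis and belongs to none of the lists, rose from 4.84 to 13.4 CPM (median 10.6) in CD to 14.4 to 21.8 CPM (median 18.6) in EMPA mice without overlap (0.85 ± 0.15, adjusted p = 0.0048). Further genes named after their values were seen were Mlycd, malonyl-CoA decarboxylase (0.46 ± 0.10, adjusted p = 0.020), Gpam, which starts triglyceride synthesis (0.51 ± 0.10, adjusted p = 0.012), and Slc27a1, a fatty acid transporter (0.43 ± 0.11, adjusted p = 0.038), all higher, of which Slc27a1 did not pass with cage as a random effect.

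**Figure D2:**
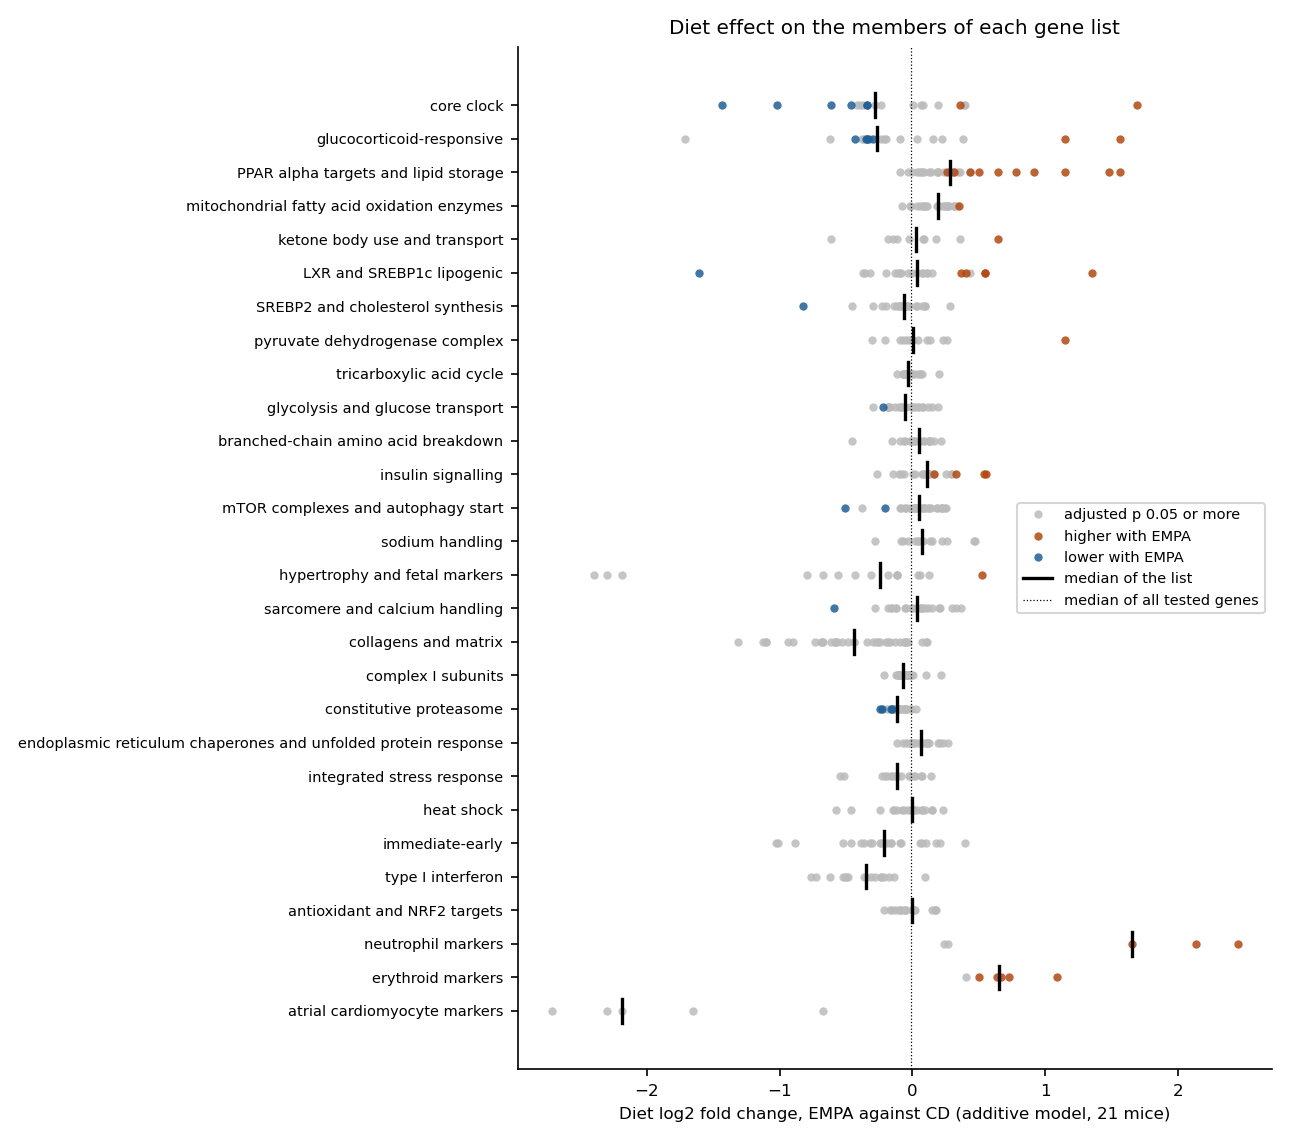
Diet log2 fold change (EMPA against CD, additive model of 21 mice) of every tested member of 25 gene lists and 3 marker lists; orange points are higher and blue points lower at an adjusted p under 0.05, grey points did not pass, black bars are list medians and the dotted line is the median of all tested genes (-0.01). PPARα targets have 10 orange points and 0 blue, and the core clock has 2 and 6. The listed collagen and matrix genes and the listed interferon genes have 0 coloured points, with 34 of 37 and 17 of 18 coefficients below 0.

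In the core clock 8 of 19 genes passed, 2 higher and 6 lower (background 2.2% and 1.1%). With cage as a random effect 2 passed, Ciart and Dbp, both lower, and the calls of the other 6 were lost. Arntl, the gene of the activator BMAL1, was at 1.27 to 6.81 CPM (median 2.42) in CD and at 1.98 to 17.1 CPM (median 10.05) in EMPA mice and rose by 1.69 ± 0.38 (adjusted p = 0.020). Its partner Clock rose by 0.36 ± 0.09 (adjusted p = 0.038). Several genes that these activators switch on fell. Ciart, a repressor of the loop, fell from 6.03 to 16.3 CPM (median 11.5) in CD to 1.96 to 8.48 CPM (median 3.65) in EMPA mice, by 1.44 ± 0.25 (adjusted p = 0.0048). Dbp, a transcription factor of the clock output, fell from 55.2 to 130.3 CPM (median 94.8) to 23.0 to 76.0 CPM (median 36.2), by 1.02 ± 0.24 (adjusted p = 0.023). Ranges overlapped for both. Per1 fell by 0.34 ± 0.08 (adjusted p = 0.029) and Hlf, a relative of Dbp, by 0.46 ± 0.12 (adjusted p = 0.037). Outside the rule for named genes, Nr1d1 (fell by 0.62, adjusted p = 0.046) and Nr1d2 (fell by 0.34, adjusted p = 0.047), the repressors of Arntl known as REV-ERBs, also passed. Per2 (-0.40, adjusted p = 0.079), Per3 (-0.42, 0.068), Nfil3 (0.39, 0.051), Npas2 (0.40, 0.12) and Cry1 (0.07, 0.61) did not pass. The median of the list was -0.29. The hour at which hearts were taken is not given in the sources used here, so the place of each mouse in its daily cycle is not known.

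The E-box CACGTG, which reads the same on both strands, was found within 250 bases before the start in 6 of 21 promoters (28.6%) of the clock list and in 2 of 12 promoters (16.7%) of its called members, against 6.02% of all promoters and 7.97% of those of tested genes. The promoters of Ciart (chr3:95882229-95882478, minus strand) and Per1 (chr11:69098699-69098948, plus strand), from RefSeq in GRCm38.p6, are shown because these are the called clock genes with an E-box, marked in capitals.
Ciart: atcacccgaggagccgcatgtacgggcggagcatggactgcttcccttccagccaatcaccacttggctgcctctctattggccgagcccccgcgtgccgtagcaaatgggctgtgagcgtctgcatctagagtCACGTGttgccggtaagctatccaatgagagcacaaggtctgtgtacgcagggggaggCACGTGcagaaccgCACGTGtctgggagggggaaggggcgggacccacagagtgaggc
Per1: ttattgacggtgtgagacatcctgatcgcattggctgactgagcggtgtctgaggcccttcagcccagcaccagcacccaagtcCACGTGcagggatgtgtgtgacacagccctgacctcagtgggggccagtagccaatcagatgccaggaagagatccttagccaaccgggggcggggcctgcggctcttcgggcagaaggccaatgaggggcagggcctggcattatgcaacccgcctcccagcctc
The E-boxes of Ciart begin 116, 58 and 44 bases before the RefSeq start and that of Per1 begins 166 bases before it. In GENCODE the gene of Per1 begins upstream of this window and that of Ciart within its last bases. A match describes the letters only.

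Genes that glucocorticoids are known to turn on gave 7 calls among 20, 2 higher and 5 lower (background 2.2% and 1.1%), with a median of -0.27. With cage as a random effect 2 higher and 1 lower passed, and the calls of Mt1, Per1, Nfkbia and Sult1a1 were lost. The 2 higher ones, Angptl4 and Pdk4, are also PPARα targets and are described above. Tsc22d3 (GILZ), an anti-inflammatory protein and a standard glucocorticoid target, was at 226 to 371 CPM (median 296) in CD and at 151 to 268 CPM (median 212) in EMPA mice and fell by 0.43 ± 0.08 (adjusted p = 0.0095). Mt1, a metallothionein with near copies in the genome, fell by 0.33 ± 0.08 (adjusted p = 0.032), and Per1, which is also in the clock list, by the amount given above. Nfkbia and Sult1a1 fell by 0.35 and 0.29 (adjusted p = 0.044 and 0.037, named after their values were seen). Fkbp5, another standard target, differed by -0.24 (adjusted p = 0.32), Sgk1 by -0.21 (0.22), Zbtb16 by 0.15 (0.54) and Klf9 by 0.03 (0.85).

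Several of these genes differed between cages of the same diet, a pattern that was noticed after the values were seen. Mean Arntl was 5.49, 2.03, 3.06 and 1.76 CPM in CD cages 1 to 4 and 9.31, 3.22 and 13.3 CPM in EMPA cages 1 to 3. The EMPA cage with the least Arntl lay below the CD cage with the most. Mean Dbp ran the other way, with 61.2, 106.9, 75.1 and 110.3 CPM in the CD cages and 44.8, 66.2 and 27.0 CPM in the EMPA cages. Pdk4 was at 3086, 1291, 2380 and 1074 CPM in the CD cages and at 4366, 2847 and 4704 CPM in the EMPA cages, the same order of cages as Arntl within each diet. Scd1 had the order of Dbp in the CD cages, with 40.7, 99.9, 53.3 and 111.5 CPM in the CD cages and 17.5, 39.1 and 23.3 CPM in the EMPA cages. For these 4 genes CD cage 1 was the CD cage nearest to the EMPA mice and EMPA cage 2 the EMPA cage nearest to the CD mice. The part of the cage in these diet differences was not tested, since no cage can be compared with itself on the other diet. The cage means of Lipe were 83.2, 64.6, 75.4 and 63.8 CPM under CD and 100.5, 93.0 and 109 CPM under EMPA, in the same order of cages as Arntl and Pdk4. Those of Srebf1 were 26.7, 28.9, 27.0 and 24.9 CPM under CD and 44.6, 33.9 and 44.5 CPM under EMPA, where EMPA cage 2 was again the EMPA cage nearest to the CD mice but CD cage 2 the CD cage nearest to the EMPA mice. The cage means of the diets did not overlap for Scd1, Lipe and Srebf1.

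**Figure D3:**
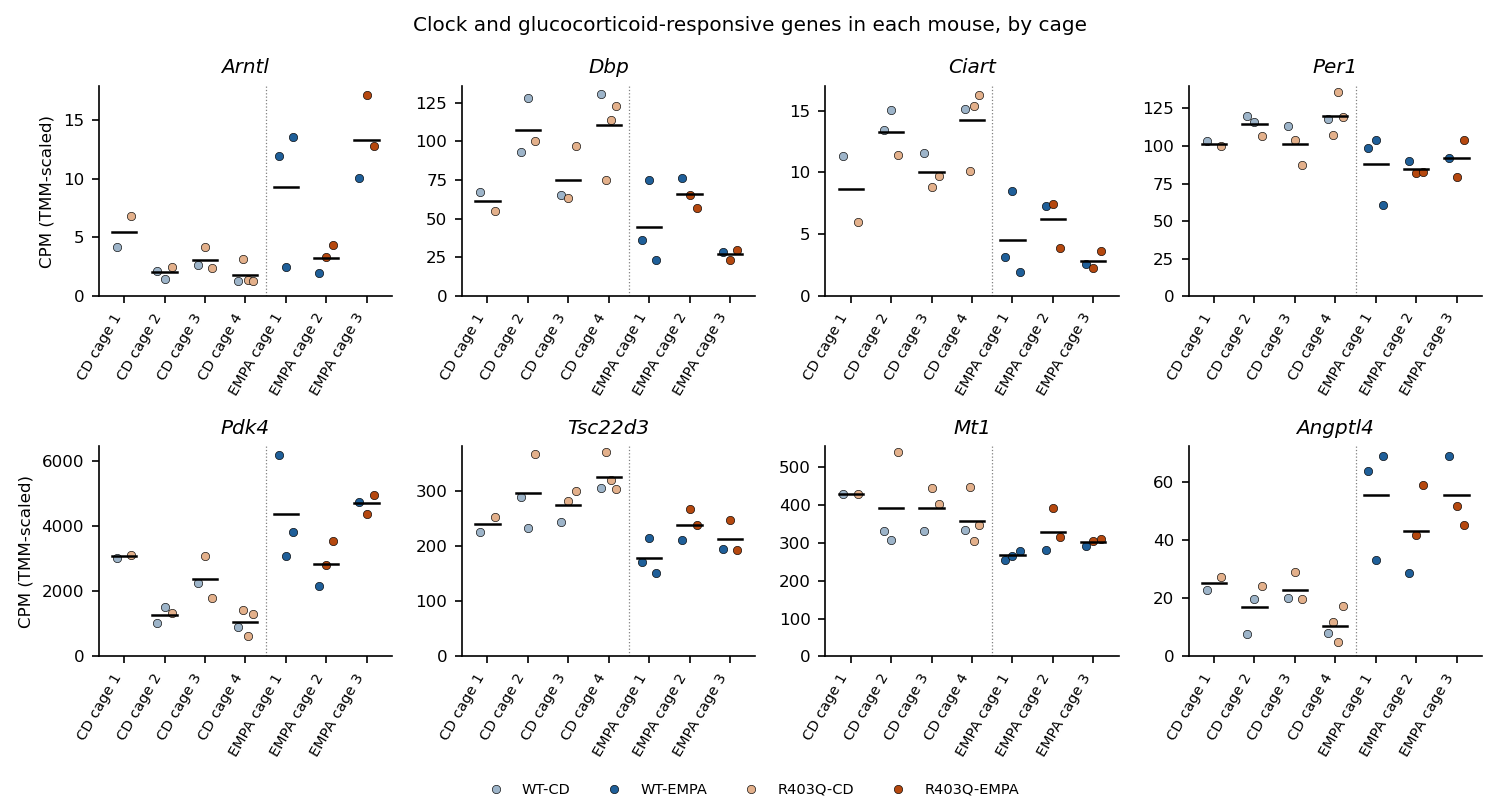
Expression in CPM (TMM-scaled, linear axes from 0) of 8 clock, glucocorticoid-responsive and lipid genes in each mouse, by cage; points are mice coloured by group, horizontal lines are cage means, and the dotted line divides the 4 CD cages from the 3 EMPA cages. EMPA cage 2 has the lowest Arntl and Pdk4 and the highest Dbp and Ciart of the EMPA cages.

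Insulin signalling genes gave 4 calls among 21, all higher (background 2.2%), with a median of 0.11. With cage as a random effect only Tbc1d4 passed, and the calls of Irs1, Foxo1 and Gsk3b were lost. Tbc1d4, the Rab regulator that releases GLUT4 vesicles when phosphorylated, was at 45.3 to 98.9 CPM (median 68.2) in CD and at 85.5 to 133 CPM (median 96.7) in EMPA mice (log2 difference 0.55 ± 0.12, adjusted p = 0.014). Irs1, the adaptor of the insulin receptor, went from a median of 60.1 CPM (37.1 to 84.4) to 89.6 CPM (64.2 to 109.6; 0.54 ± 0.13, adjusted p = 0.028). The ranges of both overlapped. Foxo1, a transcription factor held inactive by insulin, rose by 0.33 ± 0.09 (adjusted p = 0.039) and Gsk3b, the kinase that restrains glycogen synthase, by 0.16 ± 0.04 (adjusted p = 0.038). Ppp1r3c, which brings a phosphatase to glycogen, fell by 0.51 ± 0.10 (adjusted p = 0.012). Of 28 genes of the mTOR complexes and the start of autophagy 0 were higher and 2 lower (background 2.2% and 1.1%). With cage as a random effect 0 of these 28 passed, and without R403Q-CD replicate 2 there were 1 higher and 3 lower. Castor1, the arginine sensor upstream of mTORC1, fell by 0.51 ± 0.12 (adjusted p = 0.029), and Eif4ebp1, the translation repressor that mTORC1 phosphorylates, by 0.21 ± 0.05 (adjusted p = 0.028). The median of that list was 0.05. Outside the list, and named after their values were seen, the autophagy gene Atg101 was called lower (-0.25) and passed with cage as a random effect. Eif4ebp2, a relative of Eif4ebp1, was called higher (0.27) but did not pass in that fit. None of 15 sodium handling genes passed in edgeR or DESeq2, although 6 had an unadjusted p under 0.05 (median 0.07). The sodium-calcium exchanger Slc8a1 differed by 0.26 (adjusted p = 0.099) and the bicarbonate carrier Slc4a4 by 0.23 (adjusted p = 0.089).

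Among sarcomere genes 2 passed. Myh7, the β-myosin heavy chain that is abundant in the fetal mouse ventricle, separated the diets, with 1904 to 2961 CPM (median 2676) in CD and 3020 to 6086 CPM (median 3485) in EMPA mice. It rose by 0.53 ± 0.11 (adjusted p = 0.012), and the spread was widest in WT-EMPA mice. Tcap, the titin cap of the Z disc, went from 1357 to 2390 CPM (median 1759) in CD to 785.9 to 1588 CPM (median 1237) in EMPA mice and fell by 0.59 ± 0.12 (adjusted p = 0.012). Tcap was the only call among 24 genes of sarcomere and calcium handling (4.17%, against 3.3% of all tested genes) and Myh7 the only call among 16 hypertrophy and fetal markers (6.25%). Without R403Q-CD replicate 2 the sarcomere list had 1 higher and 3 lower genes. Myh6 differed by 0.07 ± 0.12 (adjusted p = 0.78), or by 0.016 without R403Q-CD replicate 2.

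The natriuretic peptide genes, the usual markers of wall stress, varied widely among the R403Q-CD mice. Nppa was at 238 to 11000 CPM (median 886.5) in CD and at 359.7 to 1090.0 CPM (median 636) in EMPA mice, with a log2 difference of -0.67 ± 0.52 (adjusted p = 0.50). Without R403Q-CD replicate 2 the difference was -0.24 and did not pass either. With all mice the coefficient was 0.42 in wild-type and -1.88 in R403Q mice. Nppb differed by -0.56 ± 0.31 (adjusted p = 0.32), with 0.02 in wild-type and -1.17 in R403Q mice, and by -0.36 without that library. R403Q-CD replicate 2, at 11000 CPM of Nppa, and R403Q-CD replicate 5, at 3826 CPM, were the highest of all mice. Without replicate 2 the median of the hypertrophy list moved from -0.25 to -0.05 and 2 of its members passed, 1 in each direction.

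The same library weighed on the matrix genes. Of the 37 collagens and matrix genes on the list 34 had a negative coefficient, with a median of -0.44. On this list 0 passed in edgeR or DESeq2, and 9 had an unadjusted p under 0.05. Calls outside it, named after their values were seen, included Col22a1 (-0.82), Col9a3 (-1.18) and Mfap4 (-1.465), which were lower. Lamb1 (0.22) and Lama5 (0.37) were called higher. Of these only Col22a1 passed with cage as a random effect. Postn, the periostin of activated fibroblasts, was at 25.3 to 647.8 CPM (median 53.0) in CD and at 14.3 to 116 CPM (median 37.8) in EMPA mice (log2 difference -1.31 ± 0.50, adjusted p = 0.14, or -0.79 without that library, which did not pass), and Plod2, which crosslinks collagen, differed by -0.27 (adjusted p = 0.097). For Postn 4 of the 9 EMPA mice lay below the lowest CD mouse and 3 of the 12 CD mice above the highest EMPA mouse, and the others overlapped. Without R403Q-CD replicate 2 the median of the list was -0.13, and 26 of 37 coefficients were negative. The 8 fibroblast markers had 0 calls (2 at an unadjusted p under 0.05, and 0 with DESeq2), and their summed level was 2281 to 5942 CPM in CD and 2302 to 3863 CPM in EMPA mice. Without that library 1 of the fibroblast markers was higher, and 4 coefficients were positive and 4 negative. Atrial markers had 0 calls among 5 tested (4 at an unadjusted p under 0.05, and 0 with DESeq2), with a median of -2.19, or -1.41 without that library, in which their sum was highest (11720 CPM, against 1124 CPM in the highest EMPA mouse). Nppa is a member of this list and made up 11000 of these 11720 CPM, so the sum largely repeats its value. The listed type I interferon genes had a negative coefficient in 17 of 18, a median of -0.35 (-0.20 without that library) and 0 calls in edgeR and DESeq2 (6 at an unadjusted p under 0.05), and Ifi27 had a coefficient of -0.23 (adjusted p = 0.12). Outside this list, and named after its values were seen, the interferon-induced gene Ifi35 was called lower (-0.25). It did not pass with cage as a random effect.

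The constitutive proteasome degrades ubiquitin-tagged proteins. Of its 31 subunits 4 fell, by small amounts, and 0 rose (background 1.1% and 2.2%), 30 had a negative coefficient, and the median was -0.11. Psmd8 went from 93.8 to 109.9 CPM (median 97.1) in CD to 72.3 to 99.02 CPM (median 83.2) in EMPA mice, a fall of 0.23 ± 0.05 (adjusted p = 0.013). Psmd14, the deubiquitinase of the lid, fell by 0.24 ± 0.05 (adjusted p = 0.014), and the ATPases Psmc4 and Psmc1 of the base fell by 0.16 ± 0.03 (0.014) and 0.15 ± 0.04 (0.041). Psmc1 did not pass with cage as a random effect. Of the 36 complex I subunits 33 had a negative coefficient with a median of -0.07, 11 had the same sign in wild-type and R403Q mice, and 0 passed in edgeR or DESeq2 (1 at an unadjusted p under 0.05). No member passed with edgeR in the lists of endoplasmic reticulum chaperones (20 tested, median 0.06), the integrated stress response (18, median -0.12), heat shock (20, median -0.01), immediate-early genes (23, median -0.22) or NRF2 targets (21, median -0.01). At an unadjusted p under 0.05 these lists had 3, 2, 3, 4 and 4 genes, and DESeq2 gave 2 lower immediate-early genes and 0 in the other lists. Without R403Q-CD replicate 2 the median was -0.06 for the integrated stress response and -0.11 for complex I. Nr4a1, the immediate-early gene with the largest named difference, had a coefficient of -0.88 ± 0.29 (adjusted p = 0.089).

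Markers of blood cells moved with diet. Of 6 erythroid markers 5 were higher with EMPA (background 2.2%), the sixth, Hba-a2, differing by 0.41 (adjusted p = 0.15), and 4 passed with cage as a random effect, where the call of Hba-a1 was lost. Their summed level was 707 to 1718 CPM (median 1155) in CD and 1215 to 2662 CPM (median 1749) in EMPA mice. The β-globin gene Hbb-bs rose by 0.64 ± 0.14 (adjusted p = 0.017) and Alas2, the first enzyme of heme synthesis in red cell precursors, by 0.67 ± 0.13 (adjusted p = 0.0095). Globin genes are near copies of each other, so the share of each is uncertain. Of 5 neutrophil markers tested, S100a8, S100a9 and Retnlg were higher (2.14 ± 0.51, 1.66 ± 0.42 and 2.45 ± 0.47; adjusted p = 0.026, 0.035 and 0.0094) but did not pass with cage as a random effect, Csf3r (0.27) and Cxcr2 (0.24) did not pass, Ly6g did not pass the filter on low counts, and the summed level was 2.36 to 12.8 CPM in CD and 6.48 to 48.8 CPM in EMPA mice. How much blood the samples held, and its part in other calls, was not tested. Of 8 endothelial markers only Kdr, the VEGF receptor, was higher (0.35 ± 0.08, adjusted p = 0.018), with summed levels of 822 to 1170 CPM in CD and 897 to 1323 CPM in EMPA mice. Markers of cardiomyocytes, macrophages, pericytes and smooth muscle, lymphocytes, adipocytes, mesothelium and Schwann cells had 0 calls. Their lists held 0 to 3 genes at an unadjusted p under 0.05, and DESeq2 gave 1 lower gene, in the pericyte and smooth muscle list.

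Beyond the lists, the smallest p-value of a higher gene was that of Man1c1, a mannosidase of the Golgi, at 33.6 to 41.7 CPM (median 35.9) in CD and 38.8 to 56.6 CPM (median 50.3) in EMPA mice (log2 difference 0.40 ± 0.05, adjusted p = 0.00071). Acsl3, an acyl-CoA synthetase of lipid droplets, rose by 0.47 ± 0.07 (adjusted p = 0.0031). Ntn1, the guidance factor netrin-1, rose by 0.60 ± 0.09, Btnl9, a butyrophilin of endothelial cells, by 0.54 ± 0.08, and Gbp10, a guanylate-binding protein with near copies, by 1.38 ± 0.21 (adjusted p = 0.0031 each). Apol11b had the largest coefficient of the 30 genes chosen by p-value, 2.15 ± 0.34 (adjusted p = 0.0033), at levels of 0 to 0.262 CPM in CD and 0.255 to 0.984 CPM in EMPA mice that lie close to the counting floor. Tmem64 (0.26 ± 0.04) and P3h4 (0.36 ± 0.06) rose as well, both with an adjusted p of 0.0033.

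Among the lower genes outside the lists Capns1, the small subunit of the calpain proteases, had the smallest p-value, with 291 to 343 CPM (median 312) in CD and 247 to 286 CPM (median 264) in EMPA mice (fell by 0.26 ± 0.04, adjusted p = 0.0031). It was the only lower gene whose mice did not overlap at all. Col22a1, a collagen of tissue junctions, fell by 0.82 ± 0.14 (adjusted p = 0.0048) and Stambp, an endosomal deubiquitinase, by 0.24 ± 0.04 (adjusted p = 0.0061). Polr1e, a subunit of RNA polymerase I, fell by 0.49 ± 0.10, Rbm3, a cold-induced RNA-binding protein with a near copy, by 0.45 ± 0.09, and Lrrc75b by 0.85 ± 0.17 (adjusted p = 0.0099 each). Arrdc2 (fell by 0.59, adjusted p = 0.0078), Agap2 (fell by 0.39, 0.0094), Afap1l1 (fell by 0.26, 0.0095) and Cdh13, the adiponectin-binding T-cadherin (fell by 0.27, 0.012), fell as well. Named after their values were seen, the proliferation genes Top2a (fell by 1.24 ± 0.31, adjusted p = 0.032) and Cdk1 (fell by 1.14 ± 0.30, adjusted p = 0.040) were among the 18 genes that were more than 2-fold lower, as was Hamp, hepcidin, whose coefficient of -3.13 ± 0.84 (adjusted p = 0.042) rests on CD levels of 0 to 4.21 CPM. These 3 calls were lost with cage as a random effect.

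The additive model assumes 1 diet effect in both genotypes, and the interaction term tested that assumption. No gene of 17309 (0%) had an adjusted interaction p under 0.05, the smallest being 0.54, and 567 had an unadjusted p under 0.05; DESeq2 also gave 0, with 582 unadjusted. All 571 genes had the same sign in wild-type and R403Q mice, a property that the pooled model favours, against 65.0% of all tested genes. Fitted alone, wild-type mice (5 EMPA, 5 CD) gave 5 genes (0.0289%), among them Man1c1 and Btnl9, which were higher, and Mlf1 and Adh1, which were lower. R403Q mice (4 EMPA, 7 CD) gave 0 genes (0%), with a smallest adjusted p of 0.071 for Gbp10 and 1673 genes at an unadjusted p under 0.05. Between genotypes the coefficients had a Pearson correlation of 0.36 and a Spearman correlation of 0.38 over the 17309 genes, which are not independent replicates and whose mice shared cages. Within the pooled calls the 2 estimates were often close: the coefficient was 0.80 in wild-type and 0.75 in R403Q mice for Acot2, 1.45 and 1.503 for Acot1, and 1.18 and 1.11 for Pdk4. Btnl9 differed more, with 0.69 and 0.39, and Tmem64 had 0.16 and 0.35, though edgeR's adjusted interaction p was 0.999 for both. The genes with the smallest interaction p were Gm16284, with 1.44 in wild-type and -0.53 in R403Q mice, Crip3, with 0.95 and -1.62, and Noc4l, with -0.20 and 0.22.

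**Figure D4:**
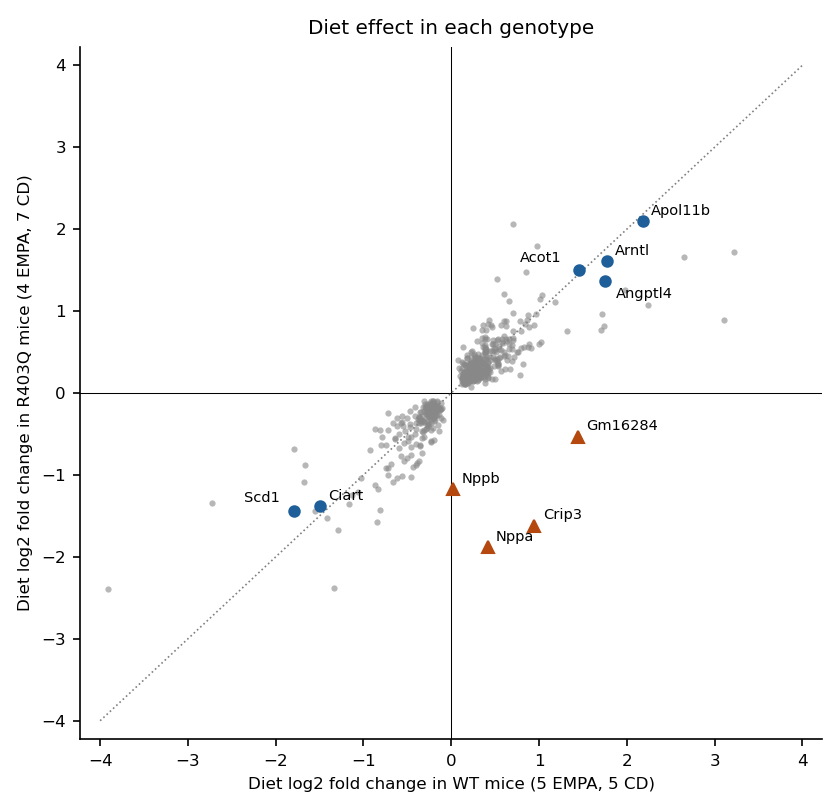
Diet log2 fold change in wild-type mice (5 EMPA, 5 CD) against that in R403Q mice (4 EMPA, 7 CD) for the 571 called genes (grey), with 6 of them labelled in blue and 4 genes that did not pass as orange triangles; the dotted line marks equal effects. All grey points lie in the quadrants of equal sign, while Nppa, Crip3 and Gm16284 lie in those of opposite sign.

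The calls changed when 1 mouse was left out and more when 1 cage was, which removed more than 1 mouse at once. The number of genes past the threshold ran from 162 without R403Q-EMPA replicate 3 to 999 without R403Q-CD replicate 3. Without CD cage 4 it was 38 and without EMPA cage 3 it was 15, and without the other cages it ran from 149 to 847. CD cage 4 held 3 R403Q-CD and 1 WT-CD mice, and EMPA cage 3 held 2 R403Q-EMPA and 1 WT-EMPA mice. The part of the cage and that of the smaller number of mice in these fits was not tested. All 571 kept their direction in the 21 fits without a mouse and the 7 fits without a cage. Their choice in these same mice favours this, and the share over all tested genes was not computed. Of the 571, 145 stayed past the threshold in every fit without a mouse, and 10 also in every fit without a cage, among them Srebf1, Acot2, Man1c1, Btnl9, P3h4, Apol11b, Fbp2, Tent5c and 4933431K23Rik. All 10 were higher with EMPA. The fit without EMPA cage 3 gave 15 higher and 0 lower genes, so no lower gene could be among the 10. Angptl4, Acot1, Abca1 and Capns1 passed in 6 of the 7 fits without a cage, Ciart, Nr1h3, Lipe, Tsc22d3 and Myh7 in 5, Scd1, Ucp3 and Tcap in 4, and Arntl, Dbp and Pdk4 in 3. Without EMPA cage 3, the 15 calls included 1 gene of the PPARα list (Acot2), 1 of the LXR list (Srebf1) and 0 of the clock, glucocorticoid, insulin and proteasome lists.

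The lists held to different degrees. The PPARα list had between 1 (without EMPA cage 3) and 15 (without CD cage 1) higher members when a cage was left out, 9 with cage as a random effect and 17 with DESeq2, and 0 lower in each of these fits. Its median stayed between 0.22 and 0.33. The core clock had 0 calls without CD cage 4 and 0 without EMPA cage 3, where its median was -0.23. The LXR list had 5 higher and 1 lower with cage as a random effect, and 1 higher without EMPA cage 3, where its median was -0.05. Erythroid markers had 3 of 6 calls without EMPA cage 3, where neutrophil markers had 0.

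**Figure D5:**
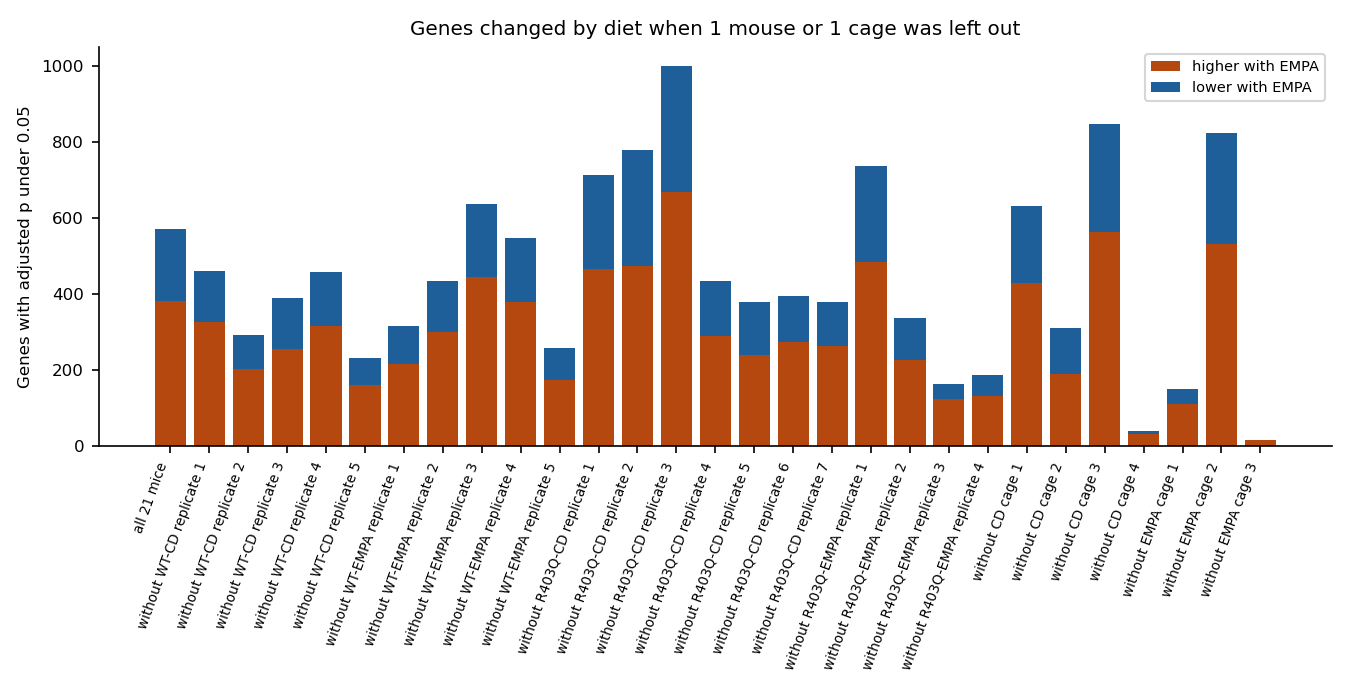
Number of genes with an adjusted p under 0.05 in the diet contrast with all 21 mice, without each mouse and without each cage; orange bars count higher and blue bars lower genes with EMPA, stacked from 0. The count is 571 with all mice and falls to 38 without CD cage 4 and 15 without EMPA cage 3.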

How the data were processed

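RNA of 21 frozen left ventricles was measured. According to the study's methods, the authors prepared poly(A) libraries, aligned read pairs to mm10 with STAR 2.6.0c and made the deposited counts with featureCounts of Subread 1.6.2, as uniquely aligned proper pairs on the same strand of Ensembl 100 genes, without mitochondrial genes. Pairs that fit near copies of a gene equally were thus not counted. The deposited log2 values are variance-stabilized counts that the authors made with DESeq2, and were used only as an alternative here. GENCODE M21 (GRCm38) gave symbols to 55104 of 55450 genes.

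The deposited counts were filtered with filterByExpr (minimum count 10 over the 4 groups), scaled by TMM and fitted with genotype and diet in edgeR 4.0.16 (R 4.3.3). The quasi-likelihood F test of the diet coefficient was adjusted by Benjamini-Hochberg over all 17309 genes, with 0.05 as the threshold. Total counts ran from 23491535 to 43539684 per mouse. The test was tried on simulated data. P-values measure the spread between mice and take no account of cages. The alternatives were DESeq2 1.42.0, limma 3.58.1, other filters, scalings and models, and leaving out each mouse or cage.

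Named genes were the 15 higher and 15 lower genes with the smallest p-values and an official symbol, up to 5 called members of each list (the 2 with the smallest p where none passed), Slc5a1, Slc5a2, Myh6, Nppa, Nppb, Pdk4 and the 3 genes with the smallest interaction p. Some genes that meet this rule are not reported here. The lists, and the choice of this comparison, were made with earlier results of these data known. The promoters came from RefSeq (GRCm38.p6), where 421 of the 571 called genes were found.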

Additional observations from a re-analysis of the deposited data

Results flagged for a closer look

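For each named gene and library measure, the highest or the lowest mouse of every group was compared with its nearest neighbour by Dixon's criterion. Of 324 groups of values, 26 had a mouse beyond the 95% critical value, where chance alone would give about 1 in 20 groups.

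R403Q-CD replicate 2 stood apart most often, in 7 of the 26. It had the highest Nppa (11000 CPM), Nppb (645.2 CPM), Postn (647.8 CPM), Dnajb4 (281.4 CPM), Sqle (3.187 CPM), Stambp (25.44 CPM) and Gm16284 (1.118 CPM) of its group. Without this mouse the diet contrast gave 474 higher and 304 lower genes. Elsewhere in R403Q-CD, P3h4 was lowest at 20.5 CPM and Slc8a1 at 409.0 CPM in replicate 5, Lpcat3 was highest at 42.73 CPM and Me1 at 131.7 CPM in replicate 3, Nr4a1 at 83.88 CPM in replicate 6 and Ndufa11 at 391.3 CPM in replicate 4.

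In WT-EMPA, replicate 3 had the highest Crip3 (0.8632 CPM), the lowest Dnajb4 (165.6 CPM) and the lowest total (30560000 counts). Replicate 4 had the highest Scd1 (39.47 CPM), replicate 5 the highest Nr1h3 (28.41 CPM), and replicate 1 the highest Slc22a5 (50.69 CPM) and Myh6 (54670 CPM).

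In R403Q-EMPA, Arrdc2 was highest at 8.167 CPM in replicate 2, Scd1 (52.72 CPM) and Mt1 (392.6 CPM) were highest in replicate 1, and Per1 (103.9 CPM) was highest in replicate 4. In WT-CD, Myh7 was lowest at 2627 CPM in replicate 3 and Mt1 was apart at 430.4 CPM in replicate 1.

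For Noc4l every EMPA mouse lay below every CD mouse in wild-type and above every CD mouse in R403Q hearts. The difference between the genotypes' coefficients was 0.41 on the log2 scale. In edgeR's quasi-likelihood test with adjustment over all tested genes its interaction did not pass, with an adjusted p of 0.999.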

How the results depend on the processing

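The count of 571 genes was 1063 (644 higher, 419 lower) with DESeq2, which included 567 of the 571, 340 without the filter on low counts, 503 scaled to library size alone, 445 with limma on the variance-stabilized values, 187 in limma's voom with cage as a random effect, 504 as the mean effect of a 4-group model and 471 without genotype. It was 5 in wild-type and 0 in R403Q mice alone. Without 1 mouse it ran from 162 to 999, and it moved more than 1.5 times without WT-CD replicate 2 (291) or 5 (231), WT-EMPA replicate 1 (314) or 5 (256), R403Q-CD replicate 3 (999), 5 (378) or 7 (379), and R403Q-EMPA replicate 2 (335), 3 (162) or 4 (185). Without 1 cage it was 631, 310, 847 and 38 for CD cages 1 to 4 and 149, 823 and 15 for EMPA cages 1 to 3. Of the 54 named genes past the threshold, 54 kept their call with DESeq2, 41 with cage as a random effect, 39 to 54 without 1 mouse, 21 without CD cage 4 and 7 without EMPA cage 3, and 0 changed sign. These genes were called in the same mice, which favours an unchanged sign. The interaction count was 0 under every alternative run. No paired analysis was possible because the labels carry no replicate numbers shared between groups and 0 cages held both diets.

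Among the named genes, signs changed for these values, which had not passed: Nppb (0.0186 in wild-type mice), Nppa (0.42 in wild-type mice), Gm16284 (-0.53 in R403Q mice), Crip3 (0.95 in wild-type mice and 0.000606 without EMPA cage 2), Myh6 (-0.0119 without CD cage 2) and Noc4l (-0.0030 scaled to library size alone, -0.20 in wild-type mice, -0.0077 without CD cage 4, -0.014 without EMPA cage 2, -0.011 without EMPA cage 3, and -0.0253 to 0.0509 without 1 mouse). The difference in total counts was -1671000 to 389800 without 1 mouse. The cause of these shifts was not tested.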
